A study of Mus musculus with 96 samples.

Results

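H3K27me3 in sorted hippocampal neurons of mice that lack both Ogg1 and Mutyh was compared with that of wild-type mice. Of the 22815 consensus peaks deposited for 3 antibodies and 2 nuclear fractions, the 4132 peaks of the H3K27me3 table of NeuN+ nuclei were taken, and 4130 were used after 2 neighbouring peaks on chromosome 2, where some libraries pile up reads, were left out. The 6 libraries compared are 3 of WT mice and 3 of the double knockout (labelled Mutyh-/-xOgg1-/-, DKO here), of 96 samples in the series. Mutyh-/- and Ogg1-/- mice, with 3 libraries each, served as further groups. All mice were male C57BL/6N of 6 months, and the DKO came from crossing the single knockouts. Each library came from the pooled hippocampi of several mice of 1 genotype, so a library is a pool and not an animal. Replicates are separate samples in the labels, and p-values speak of the spread between pools, which at most peaks was taken from the trend fitted over all peaks and not from the peak itself. In such bulk samples, a mark on fewer nuclei and less of the mark per nucleus cannot be told apart.

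Ogg1 and Mutyh are DNA glycosylases of base excision repair. Ogg1 removes 8-oxoguanine, an oxidised guanine, and Mutyh removes adenine mispaired with it. H3K27me3 is the trimethylation of lysine 27 on histone H3. It is written by Polycomb repressive complex 2 (PRC2), whose core holds Suz12, Eed and a methyltransferase, Ezh1 or Ezh2. In adult neurons the mark lies over promoters of silent developmental regulators, many of them rich in CpG, and in broader domains between genes. Whether the loss of both glycosylases alters this mark in neurons is the question the comparison addresses.

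The sequences at the centre of 6 peaks that the results turn on are given first, because CpG content and repeated sequence differ greatly between them. Each is 200 bases of the plus strand of GRCm38 (RefSeq), with each CpG in capitals.
P4ha2 peak, chr11:54140516-54140715: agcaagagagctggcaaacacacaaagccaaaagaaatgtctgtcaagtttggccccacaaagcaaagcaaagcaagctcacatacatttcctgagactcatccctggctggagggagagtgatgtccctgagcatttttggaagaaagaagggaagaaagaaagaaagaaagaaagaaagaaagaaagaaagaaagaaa
Pex2 peak, chr3:5860592-5860791: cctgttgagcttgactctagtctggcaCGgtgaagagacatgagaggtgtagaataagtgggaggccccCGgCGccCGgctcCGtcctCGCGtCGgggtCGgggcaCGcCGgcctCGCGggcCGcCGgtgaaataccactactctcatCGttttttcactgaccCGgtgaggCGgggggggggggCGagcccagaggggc
Jarid2 peak, chr13:44869521-44869720: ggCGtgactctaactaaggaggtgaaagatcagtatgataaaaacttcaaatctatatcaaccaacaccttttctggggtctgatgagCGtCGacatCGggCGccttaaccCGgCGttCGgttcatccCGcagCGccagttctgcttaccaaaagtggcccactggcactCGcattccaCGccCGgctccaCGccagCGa
Lhx3 peak, chr2:26202861-26203060: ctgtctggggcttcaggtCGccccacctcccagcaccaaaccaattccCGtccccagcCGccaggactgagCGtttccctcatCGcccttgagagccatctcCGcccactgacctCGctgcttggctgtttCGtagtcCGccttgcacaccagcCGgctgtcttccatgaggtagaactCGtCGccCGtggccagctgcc
Erfl peak, chr7:24946304-24946503: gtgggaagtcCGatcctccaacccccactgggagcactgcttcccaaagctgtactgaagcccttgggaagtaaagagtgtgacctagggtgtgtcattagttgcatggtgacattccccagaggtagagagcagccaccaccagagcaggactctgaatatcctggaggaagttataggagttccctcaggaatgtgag
Zfhx3 peak, chr8:107795659-107795858: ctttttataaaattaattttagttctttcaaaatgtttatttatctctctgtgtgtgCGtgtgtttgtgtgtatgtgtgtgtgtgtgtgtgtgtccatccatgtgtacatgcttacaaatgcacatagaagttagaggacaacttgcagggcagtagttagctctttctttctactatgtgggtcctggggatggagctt
The P4ha2 window has 0 CpG and ends in a run of a short repeat of gaaa units. The windows at Pex2, Jarid2 and Lhx3 hold 19, 15 and 13 CpG. The Erfl and Zfhx3 windows hold 1 CpG each, and a run of tg units lies in the Zfhx3 window.

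The libraries were shallow. Outside the 2 peaks left out, the 6 libraries held from 21675 reads in peaks (DKO replicate 1) to 47745 (DKO replicate 3), with a median of 3 to 9 reads per peak. Peaks with 0 reads made up between 5.23% and 23.1% of the table in each library. The 2 peaks left out took from 0% of the reads in DKO replicate 2 to 31.7% in DKO replicate 1. The neuronal label was checked on H3K4me3, a mark of active promoters. In NeuN+ nuclei 7 of 8 neuronal marker genes (Camk2a, Map2, Rbfox3, Slc17a7, Snap25, Syn1 and Syt1) had an H3K4me3 promoter peak, and 0 of 8 had one in NeuN- nuclei. Of the neuronal marker peaks in NeuN+ nuclei, 1 was a differentially enriched region of DKO against WT, as defined below. Of 13 markers of glia and vessels, 2 (Mbp and Slc1a3) had an H3K4me3 promoter peak in NeuN+ nuclei. Their summed levels were 39.2 to 50.0 normalised reads in WT and 48.6 to 58.7 in DKO. In NeuN- nuclei only 1 of the 13, Olig1, had one, so the lack of neuronal marker peaks there is a weak check of purity. In NeuN+ nuclei, H3K27me3 promoter peaks lay at 0 of the 8 neuronal genes and at 4 of these 13 genes (Cldn5, Olig1, Olig2 and Sox10). Summed levels at the 4 genes were 36.8 to 50.7 in WT and 28.6 to 35.0 in DKO, which do not overlap. None of their peaks was a differentially enriched region, and 4.67% of all peaks were lower in DKO without overlap. The part of other cell types in the results below was not tested.

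After correction for the number of peaks, no single H3K27me3 peak differed detectably between DKO and WT neurons in limma, edgeR or DESeq2. With limma on log2(normalised reads + 1), 0 of 4130 peaks had a Benjamini-Hochberg adjusted p under 0.05. The smallest was 0.887, and 167 peaks had an unadjusted p under 0.05. On recovered reads, edgeR gave 0 peaks with an adjusted p under 0.05 and 108 at an unadjusted p under 0.05, and DESeq2 gave 0 and 151. limma-voom gave 2 peaks with an adjusted p under 0.05, near Gal3st4 and Zfhx3 and described below, both with no read in 1 of the groups. The log2 fold changes had a median of 0.01 and ranged from -3.20 to 3.57.

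Differentially enriched regions (DERs) were defined by a log2 fold change beyond 0.5 in either direction together with p under 0.05, not adjusted. There were 167 DERs, 4.04% of the peaks tested. In DKO, 93 were higher (2.25%) and 74 lower (1.79%). The lowest and highest library values of the groups did not overlap at 230 peaks higher in DKO (5.57%) and 193 lower (4.67%). DERs are therefore given as the leading peaks of the comparison, and none of them passed the corrected test in limma. They mostly had few reads, with a mean under 10 normalised reads at 75 of the 93 higher and 63 of the 74 lower DERs. Of the 93 higher DERs, 12 had no read in any WT library, and 4 of the 74 lower DERs had none in any DKO library. Which peaks were DERs depended on single libraries. Without DKO replicate 1, the shallowest library, there were 132 DERs, of which 67 had been DERs with all libraries. Without DKO replicate 3, the deepest, there were 203, 70 higher and 133 lower. Without DKO replicate 2, there were 54 higher and 75 lower.

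**Figure D1:**
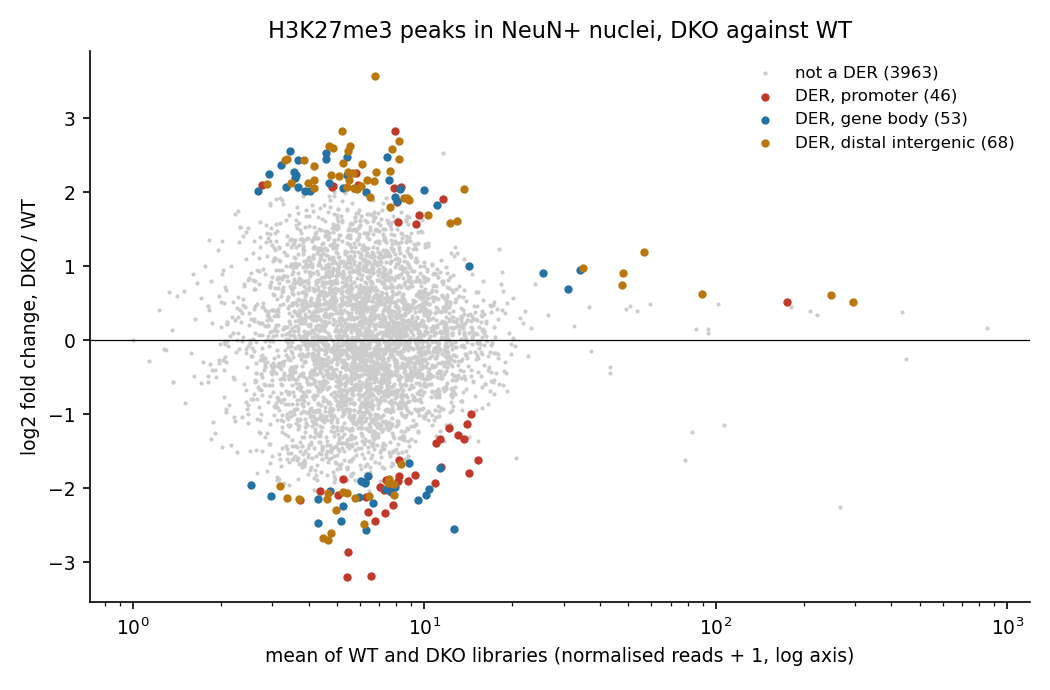
Each point is 1 of the 4130 H3K27me3 peaks of NeuN+ nuclei, with the mean of the 6 WT and DKO libraries (normalised reads plus 1, log axis) against the log2 fold change of DKO over WT. The 167 DERs are coloured by position, and most lie to the left of 10 reads, where large fold changes rest on few reads.

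The direction of the DERs differed by position in the genome, a difference that was not tested. At promoters, within 2 kb of a transcription start, 14 DERs were higher and 32 lower among 1095 peaks. In distal intergenic sequence, 49 were higher and 19 lower among 1778 peaks. In gene bodies, 30 were higher and 23 lower among 1257 peaks. The share of peaks that were DERs was alike in the 3 classes, with 4.20%, 3.82% and 4.22%. Over all peaks of a class, the median log2 fold change was -0.06 at promoters, 0.03 in distal sequence and 0.05 in gene bodies. Promoter peaks held a median of 12 CpG, against 4 in distal and 5 in gene-body peaks. Lower promoter DERs held 10.5 and higher promoter DERs 10 CpG. The excess of lower DERs at promoters depended on the test. edgeR called 11 promoter DERs higher and 7 lower, and DESeq2 12 and 12, while the excess of higher distal DERs stayed, with 37 higher and 15 lower in edgeR and 44 and 30 in DESeq2. Without DKO replicate 3 there were 7 higher and 60 lower promoter DERs, and 40 higher and 36 lower distal DERs. Without DKO replicate 1, the distal DERs were 30 higher and 25 lower. Without DKO replicate 2, the promoter DERs were 3 higher and 34 lower, and the distal ones 35 higher and 22 lower.

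**Figure D2:**
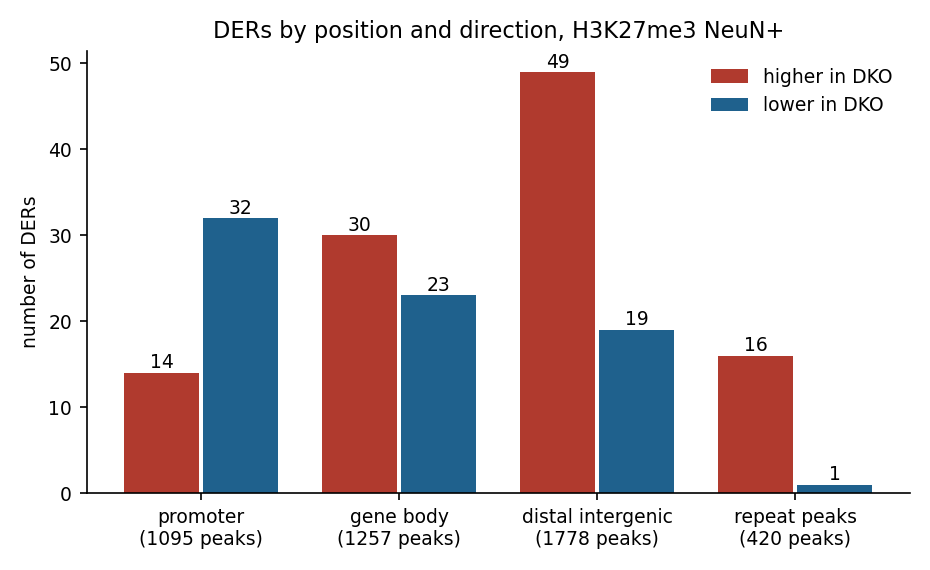
Bars count the DERs higher (red) and lower (blue) in DKO at promoters, in gene bodies, in distal intergenic sequence and at repeat peaks, where at least 50% of bases are masked (these also count in 1 of the first 3 classes). Lower DERs outnumbered higher ones at promoters (32 and 14), and 16 of 17 repeat DERs were higher.

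The share of reads in each class was compared over libraries. It gives most weight to the peaks with the most reads, and over peaks with a mean of at least 10 reads the promoter difference was -5.06 percentage points in place of -2.21. Promoter peaks took 34.2%, 36.6% and 37.3% of the reads of the WT libraries and 30.4%, 36.1% and 35.1% of those of the DKO libraries. The means were 36.0% ± 1.65 (SD, n = 3) and 33.8% ± 3.05 (SD, n = 3), and the groups overlapped. For distal peaks the WT mean was 37.2% ± 1.42 (SD, n = 3), and the DKO mean was 38.8% ± 1.08 (SD, n = 3). The exact two-sided permutation p was 0.4 for promoters, 0.3 for distal peaks, 0.9 for gene bodies and 0.8 for repeat peaks, and from 0.8 to 0.9 after adjustment over the 4 classes. The smallest p that 3 against 3 libraries allow is 0.1. The test takes the libraries as unpaired, though the promoter share was lowest in replicate 1 of every genotype. Each DKO library had a lower promoter share and a higher distal share than the WT library of the same number. For gene bodies and repeat peaks the sign was mixed. A pairing by replicate number was not tested here.

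Promoter DERs that were higher in DKO lay at developmental regulators and at genes of other kinds. The leading peak with all DKO libraries above all WT libraries lay at -1041 bp from the start of 1700049E22Rik (chr6:100525959-100526359). Its WT libraries had 0, 2.26 and 0.794 normalised reads and its DKO libraries 16.3, 5.96 and 16.3. With 3 WT reads in all, the ratio of DKO to WT was 13.6, with an exact 95% counting interval from 4.36 to 68.5, which covers counting error only. Lhx3, a LIM homeodomain factor of motor neurons and the pituitary, had a CpG-rich peak at its start (27 CpG, an exon in GENCODE vM21). Its levels were 3.16, 1.13 and 9.52 in WT and 19.0, 19.9 and 10.6 in DKO, a log2 fold change of 1.90 ± 0.69 (SE) with an unadjusted p of 0.00582. Peaks at the promoters of Cldn6 (a tight junction claudin), Sox6 (a SoxD transcription factor) and Tcf7l1 (an HMG-box factor that acts in Wnt signalling) had 0 to 6.35 normalised reads in WT and 7.51 to 17.9 in DKO. Their log2 fold changes were 2.05, 2.08 and 1.60. At Cldn6, Sox6 and Tcf7l1 the call held under 17, 14 and 9 of 19 alternatives.

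Of the 32 promoter DERs that were lower in DKO, 11 had a mean of at least 10 normalised reads. The leading ones without overlap of groups had fewer reads and were nearly empty in DKO at Erfl, Gal3st4 and Casq2. The peak at -1710 bp from the start of Erfl, a gene of the ETS repressor family (chr7:24946204-24946604), had 11.6, 13.5 and 7.14 normalised reads in WT and 0, 0.994 and 0 in DKO. Its log2 fold change was -3.18 ± 0.95 (SE), with an unadjusted p of 0.000822, the smallest of a promoter peak. Counted as 32 WT reads against 1, WT was 34.5-fold higher, with an exact interval from 5.76 to 1405. The peak annotated to the promoter of Gal3st4, a galactose sulfotransferase (chr5:138273584-138273984), lies in an exon of Gpc2, a glypican of developing neurons. It had 11.6, 4.51 and 10.3 in WT and 0 in each DKO library, so it was at least 10.1-fold lower, set against a floor of 3 reads over the group. Casq2, the calcium store protein calsequestrin of heart muscle, had 8.41, 3.38 and 14.3 in WT and 0, 0 and 0.626 in DKO at a peak at -520 bp from its start. Lack of overlap at these 3 peaks was part of the rule that named them. Wfdc1, a secreted protein with a WAP domain, and Rbms3, an RNA-binding protein, had 7.36 to 13.5 normalised reads in WT and 0 to 6.88 in DKO, with log2 fold changes of -2.45 and -2.23.

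A few lower promoter DERs had more reads. They were named here after their values were seen, because they remained DERs among the 416 peaks with a mean of at least 10 reads in a fit to those peaks alone. Tbx20, a T-box factor of heart and motor neurons, had 14.7, 22.6 and 17.5 normalised reads in WT and 10.9, 6.96 and 8.13 in DKO at its promoter. Its log2 fold change in that fit was -1.03 ± 0.49 (SE), with an unadjusted p of 0.0477. Tbx18, a related T-box factor, had 14.7, 20.3 and 17.5 in WT and 9.52, 2.98 and 13.1 in DKO, and -1.16 ± 0.51 (SE), with an unadjusted p of 0.0335. The groups did not overlap at either peak. That fit held 6 DERs in all. Those at P4ha2, Lhx3 and Pex2 were higher, and those at Tbx20, Tbx18 and D230030E09Rik lower, the last of which was no DER among all peaks.

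In gene bodies, the 5 higher DERs of smallest p without overlap of groups had few or no reads in WT. With overlap, E030030I06Rik had 18.9, 36.1 and 14.3 in WT and 53.1, 33.8 and 42.5 in DKO. Chil4 (a chitinase-like protein) had 0 reads in each WT library and 6.80, 7.95 and 1.25 normalised reads in DKO, at least 4.64-fold more. Scn10a, a voltage-gated sodium channel of sensory neurons, had 0 in WT and 5.44, 4.97 and 4.38 in DKO, at least 4.95-fold more. Both are intron peaks. Creb5, a CRE-binding factor, had 0, 1.13 and 0 in WT and 17.7, 1.99 and 5.63 in DKO, and all 6 single-knockout libraries were above WT too (3.98 to 13.8). Another gene-body peak of Creb5 was a lower DER (log2 fold change -2.10), with 0 reads in DKO. Skor2, a corepressor of cerebellar Purkinje cells, had 0, 0 and 0.794 in WT against 12.2, 2.98 and 5.63. Ak8, an adenylate kinase, had 4.21, 0 and 0.794 against 8.16, 15.9 and 9.38.

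The lower gene-body DERs often lay inside another gene than the one deposited as nearest. Of the 46 peaks named here, 15 lay in the deposited gene, 7 in a different gene of GENCODE vM21 and 24 outside genes. The peak annotated to Bub3, a spindle checkpoint protein whose start is 160697 bp away, lies in an intron of Fgfr2, a fibroblast growth factor receptor. It had 10.5, 5.64 and 6.35 in WT and 0, 0 and 2.50 in DKO. The peak annotated to Gm6878 lies in Ebf2, a factor of olfactory and neuronal development, with 14.7, 11.3 and 15.9 in WT and 0, 10.9 and 3.13 in DKO. The peak annotated to Rnf7 lies in an exon of the non-coding BC043934, with 18.9, 15.8 and 8.73 against 0, 3.98 and 7.51. Whrn, a scaffold of hair cell stereocilia, had 8.41, 12.4 and 7.14 against 0, 3.98 and 0. The peak near Slfn5, of the Schlafen family, had 2.10, 6.77 and 10.3 against 0, 0 and 0.626. These 5 peaks were named by a rule that required groups without overlap. At all 5, DKO replicate 1 had 0 reads.

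The peak with the smallest p of the whole table lay between genes, 12723 bp from the start of P4ha2, a subunit of collagen prolyl 4-hydroxylase (chr11:54140416-54140816). It had 29.5, 30.4 and 39.7 normalised reads in WT and 95.2, 75.5 and 62.6 in DKO. The groups were far apart, with 33.2 ± 5.64 (SD, n = 3) and 77.8 ± 16.5 (SD, n = 3). The log2 fold change was 1.20 ± 0.32 (SE), with an unadjusted p of 0.000215 and an adjusted p of 0.887 in limma. The call held under all 20 alternatives that could be computed for it, with log2 fold changes from 0.84 to 1.34, unadjusted p up to 0.0249 and adjusted p of 0.114 or more. The single knockouts were as high, with 67.8 to 110 normalised reads, so that all 9 knockout libraries were above all 3 WT libraries. DKO did not differ detectably from the mean of the single knockouts (-0.12 ± 0.28, SE, unadjusted p = 0.674). At this peak 22.5% of the 25-base words occurred more than once on the chromosomes of GRCm38.

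Other distal DERs had fewer reads or smaller changes. Otx1, a homeodomain factor of the forebrain, had 2.10, 2.26 and 0 in WT and 13.6, 11.9 and 5.00 in DKO at a peak 25555 bp downstream of its start. Mdfi, an inhibitor of myogenic factors, had 0, 1.13 and 0.794 against 6.80, 9.94 and 8.13. Gm15217 had 0, 1.13 and 0 against 4.08, 10.9 and 6.88. Of the 19 lower distal DERs, the 5 named by rule had 2.26 to 15.8 normalised reads in WT and 0 to 5.00 in DKO. These 5 lay near Sirpb1c, Mefv (pyrin, of the inflammasome), Zfp317 (a zinc finger protein), Ebf3 (a factor of neuronal development) and Gm28590. Sirpb1c had 15.8, 2.26 and 3.97 in WT and 0 in each DKO library, at least 7.91-fold lower. Zfp317 was even in WT, with 7.36, 6.77 and 7.14, against 1 read in DKO replicate 1 and 0 in the other DKO libraries.

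**Figure D3:**
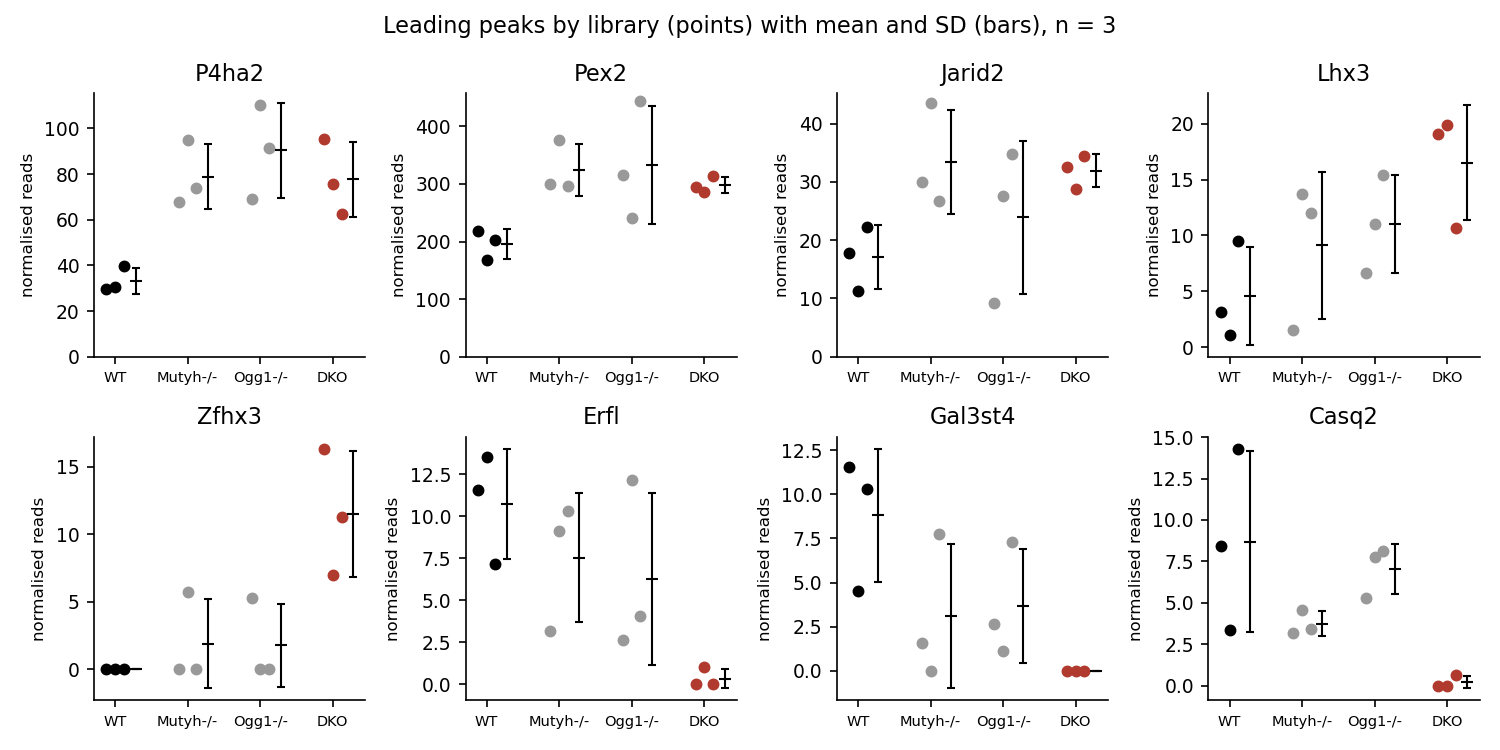
Normalised reads of each library (points) with the mean and SD of 3 libraries (bars) at 8 named peaks, for WT, the single knockouts and DKO. At P4ha2 and Pex2 all knockout libraries lie above WT, while at Zfhx3 the DKO libraries (6.96 to 16.3) lie above the single knockouts (0 to 5.72) and at Erfl and Casq2 below them.

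Among the peaks with the most reads, the DERs were all higher in DKO. Of the 32 peaks with a mean of at least 30 normalised reads, 10 were DERs and all 10 were higher in DKO, and 24 of the 32 had a positive log2 fold change. That mean was taken over all 12 libraries, so peaks higher in the knockouts pass the cut more easily, and the direction is partly set by it. The DERs at Fbxw4, Vmn1r2 and E030030I06Rik had WT means of 23.1, 22.2 and 23.1 and passed only through the knockout groups. The lowest log2 fold changes of the 32 were at 4933422A05Rik (-2.25), Gm5458 (-1.62), Mir101c (-1.24) and Chl1 (-1.14). None of these was a DER. Each had 0 reads in DKO replicate 2 and between 189 and 882 normalised reads in DKO replicate 1. Those libraries also had the lowest and highest DKO shares of reads in the peaks left out. Gm8579 (-0.44) and Mir6356 (-0.36) were negative too. Of the remaining 4098 peaks, 83 were higher and 74 lower. The peak annotated to Pex2, a peroxisome biogenesis factor whose start is far away, had 219, 168 and 202 in WT and 295, 285 and 313 in DKO, a log2 fold change of 0.61 ± 0.24 (SE) with an unadjusted p of 0.0122. The one 68145 bp from Axin2, a feedback inhibitor of Wnt signalling, had 267, 196 and 267 in WT and 309, 341 and 391 in DKO, 0.52 ± 0.23 (SE) with an unadjusted p of 0.0276. The groups did not overlap at either peak, which at Pex2 was part of the rule that named it. With cyclic loess scaling, the log2 fold changes fell to 0.15 and 0.05. In edgeR the unadjusted p values were 0.253 and 0.327. Neither peak was called in either setting. In all, the call held under 14 of 20 alternatives at Pex2 and under 8 of 20 at Axin2.

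These high peaks were also peaks of the other antibodies. Of the 32, 24 overlapped a peak of all 3 other tables examined (H3K4me3 and Suz12 of NeuN+ nuclei and H3K27me3 of NeuN- nuclei), and the other 8 overlapped at least 1. Over all 4130 peaks, 42 overlapped a peak of all 3 tables and 3677 of none. The 32 took between 12.6% and 18.6% of the reads of the WT libraries and between 13.4% and 24.8% of those of the DKO libraries. Their median share of 25-base words found more than once in the genome was 37.5%, against 0% over all peaks. At Pex2 it was 62.3% and at Axin2 6.63%. Without the 42 peaks found in all tables, 83 higher and 74 lower DERs were left. The part of repeated sequence in these values was not tested.

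**Figure D4:**
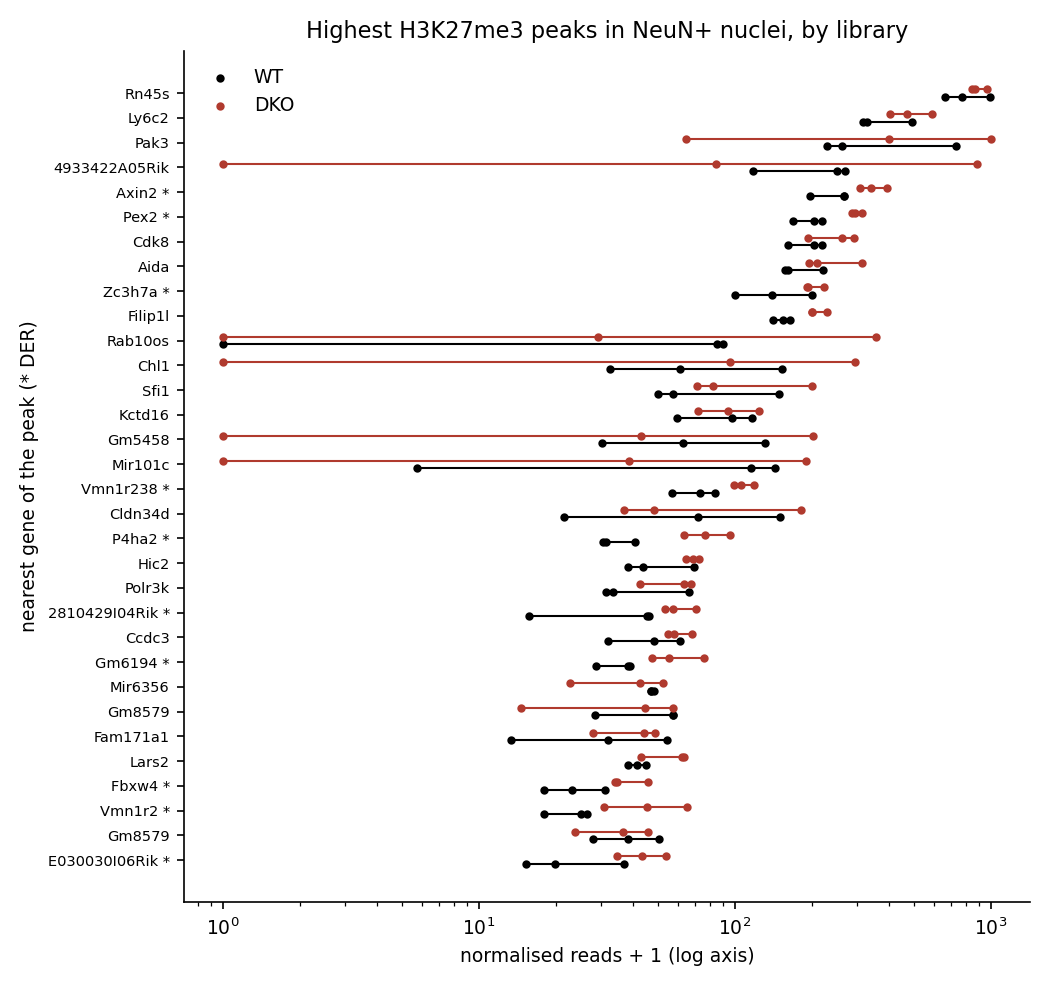
The 32 peaks with a mean of at least 30 normalised reads over 12 libraries, named by the deposited nearest gene, with 1 point per library (normalised reads plus 1, log axis), WT in black and DKO in red, and lines from the lowest to the highest library. The 10 DERs (*) are all higher in DKO, but the cut includes knockout libraries. The WT means at Fbxw4, Vmn1r2 and E030030I06Rik are under 30.

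Repeat peaks were DERs as often as others (17 of 420, 4.05%), with 16 higher and 1 lower. Among the other peaks 77 DERs were higher and 73 lower, so most of the excess of higher DERs lay in repeat peaks. Repeat peaks took 14.3% of the reads of DKO replicate 1. They took 7.13% and 7.71% in DKO replicates 2 and 3, and 7.06% to 10.1% in the WT libraries. The leading repeat DER lay far upstream of Zfhx3, a homeodomain zinc finger factor (chr8:107795559-107795959, 52.4% masked). It had 0 reads in each WT library and 16.3, 6.96 and 11.3 normalised reads in DKO, at least 11.4-fold more. It was the peak with the largest fitted log2 fold change (3.57 on the log2(value + 1) scale, unadjusted p = 0.000488). In the single knockouts, 2 of 6 libraries had any read there. A gene-body peak of Zfhx3 was a lower DER (-1.99). Gm7977 had 0, 1.13 and 3.17 against 8.16, 17.9 and 10.0, and the 1 lower repeat DER, near Rmdn2, had 10.5, 12.4 and 7.94 against 0, 4.97 and 3.13. At Rmdn2 97.0% of the bases are masked.

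Genes of PRC2 itself were few in the table. The list of PRC2 and other H3K27 enzymes had 10 peaks at 5 genes, 2 of them higher DERs and 0 lower, where 4.04% of all peaks were DERs and 2.25% higher ones. The median log2 fold change was 0.37, against 0.01 over all peaks, and a count of 2 is too small to set the list apart. Jarid2, a DNA-binding partner of PRC2, had 17.9, 11.3 and 22.2 normalised reads in WT and 32.7, 28.8 and 34.4 in DKO at an intron peak (chr13:44869421-44869821), without overlap. The log2 fold change was 0.91 ± 0.39 (SE), with an unadjusted p of 0.0195. The call held under 12 of 20 alternatives, and among those that lost it were edgeR (unadjusted p = 0.097) and leaving out WT replicate 2 (0.60, unadjusted p = 0.163). Of the 25-base words of this CpG-rich peak, 76.4% occur elsewhere in the genome too, so reads from copies of this sequence cannot be told apart with certainty. Aebp2, another PRC2 partner, had 3.16, 0 and 6.35 against 8.16, 21.9 and 6.88 at a peak 133162 bp from its start.

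Developmental transcription factors, the classical targets of the mark, made up 541 peaks at 201 genes. Among them 7 DERs were higher and 9 lower, 2.96% of the peaks against 4.04% of all, with a median of -0.05. Beside Lhx3, the higher ones named by rule include Foxe1, a forkhead factor, with 0, 9.02 and 0 in WT and 6.80, 13.9 and 13.1 in DKO. The lower ones include Pou4f1, a POU factor of sensory neurons, with 26.3, 13.5 and 16.7 in WT and 0, 12.9 and 16.3 in DKO, and Dbx1, a homeodomain factor of interneurons, with 12.6, 15.8 and 11.9 against 0, 1.99 and 16.9. The groups overlapped at these 3 peaks, and the low DKO value at Pou4f1 was that of replicate 1. Without that library the log2 fold change at Pou4f1 was -0.33, with an unadjusted p of 0.535. Of the 5 genes with more than 1 DER, named here after their values were seen, Creb5, Pmp22 and Zfhx3 had 1 in each direction, and Irx1 and Nkd1 had 2 lower ones. Irx1, an Iroquois factor with 13 peaks, had log2 fold changes of -2.34 at its promoter and -1.67 at a distal peak. Hox genes had 9 peaks and 1 DER, a lower one of -1.34 annotated to Hoxa2 that lies in exons of Hoxa7.

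Among signalling genes, morphogen pathways had 4 higher DERs and 0 lower in 77 peaks, at Nodal (a TGF-beta ligand), Axin2, Hes5 (a Notch effector) and Fgf20 (a fibroblast growth factor). That is 5.19% of the list, near the 4.04% of all peaks, and the median over the 77 peaks was -0.07. At Nodal the values were 1.05, 16.9 and 3.97 in WT and 19.0, 12.9 and 17.5 in DKO, so the groups overlapped. Ion channels had 2 higher DERs in 38 peaks, at Scn10a and Kcnj1 (5.26%, also near the share of all peaks), with a median of 0.20. Kcnj1, an inward rectifier potassium channel, had very even values, with 3.16, 4.51 and 3.97 in WT and 13.6, 15.9 and 14.4 in DKO and a log2 fold change of 1.69 ± 0.78 (SE). Axon guidance genes had 1 higher DER in 18 peaks, annotated to Plxnd1 and lying in an exon of Tmcc1. Olfactory, vomeronasal and taste receptor clusters had 5 higher and 1 lower DER in 113 peaks (5.31%, near the 4.04% of all peaks), with a median of 0.41. Or12d2, an olfactory receptor, had 0 in each WT library and 6.80, 4.97 and 2.50 in DKO, at least 4.33-fold more. Or2h15 had 13.7, 5.64 and 5.55 against 0, 0 and 6.88. Vmn1r2, a pheromone receptor, had 24.2, 16.9 and 25.4 against 63.9, 29.8 and 44.4 at a distal peak.

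Several lists held no DER, but they are short, and at the 4.04% of all peaks few or none would be called in them. Synaptic adhesion (39 peaks), glutamate receptors and postsynaptic scaffolds (12), GABA and interneuron peptides (15), monoamine and acetylcholine receptors (24), plasticity genes (6), base excision repair (2) and neuron identity (5) had 0 DERs each. Non-neuronal identity genes had 0 DERs in 23 peaks and a median of -0.52. Medians of the lists just given ranged from -0.62 (glutamate receptors and postsynaptic scaffolds) to 0.48 (base excision repair). Among 13 genes singled out in the study, 2 had a peak, Oaf (-0.33) and Wnt6 (-0.34), and neither was a DER. At genes such as Grin1 and Bdnf the study counted H3K27me3 reads in a window at the transcription start, not in consensus peaks. The lack of a peak here does not bear on those values. The knocked-out genes had no H3K27me3 peak of their own. Within 10 Mb of Ogg1 there were 11 peaks and 1 DER, the higher one annotated to Plxnd1, and within 10 Mb of Mutyh 48 peaks and 2 DERs, higher at Skint5 and lower at Dmbx1.

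Against the single knockouts, DKO had 177 DERs (4.29%), with the contrast taken to the mean of Mutyh-/- and Ogg1-/-. Of these, 93 were higher and 84 lower, and 0 had an adjusted p under 0.05, with 177 at an unadjusted p under 0.05. edgeR made 111 such calls. Of the named peaks, those at Erfl, Casq2, Bub3 and Zfhx3 had the smallest p in this limma contrast. Sox6 (1.67, unadjusted p = 0.0442), Sirpb1c (-1.96, 0.0303), Pou4f1 (-1.04, 0.0329) and Dbx1 (-1.29, 0.0473) were also DERs of it. At Erfl the single knockouts had 2.65 to 12.2 normalised reads, and DKO differed from their mean by -2.47 ± 0.82 (SE) on the log2 scale (unadjusted p = 0.00268). At Casq2 they had 3.15 to 8.11, and the difference was -2.38 ± 0.87 (SE, unadjusted p = 0.00624). At Bub3 it was -2.26 ± 0.83 (SE, unadjusted p = 0.00622), and at Zfhx3 2.67 ± 0.89 (SE, unadjusted p = 0.0026). At the high peaks of P4ha2, Pex2 and Axin2, by contrast, the differences were -0.12, -0.12 and -0.05, with unadjusted p of 0.581 or more. These contrasts use the same DKO libraries as the comparison with WT and are no independent evidence.

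The other readouts of the same genotypes were read at the DERs. H3K4me3 peaks of NeuN+ nuclei overlapped 13 of the 93 higher (14.0%) and 5 of the 74 lower DERs (6.76%), against 4.79% of all 4130 peaks. Of the DERs, 10 higher and 0 lower ones overlapped a peak of all 3 other readouts, so these 10 enter each such count. Over all 12625 H3K4me3 peaks 5.24% were DERs, and among those at H3K27me3 DERs 1 of 18 was, at Id3. Id3, an inhibitor of helix-loop-helix factors, had an H3K27me3 log2 fold change of 1.69 at its promoter, and its H3K4me3 peak rested on 1.52 ± 2.63 (SD) normalised reads in the 3 WT libraries and 8.57 ± 2.60 (SD) in the 3 DKO libraries. Suz12 peaks overlapped 16 higher and 2 lower DERs, and 0 of these 18 were Suz12 DERs, against 2.59% of 771 peaks. limma gave 0 Suz12 peaks of the whole table with an adjusted p under 0.05. At the Jarid2 peak Suz12 was 23.9 in WT and 20.0 in DKO (log2 fold change -0.24, unadjusted p = 0.578), and at P4ha2 6.33 and 15.4 (1.14, unadjusted p = 0.302).

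In NeuN- nuclei, H3K27me3 peaks overlapped 13 higher and 7 lower DERs (14.0% and 9.46%), against 5.98% of all 4130 peaks. Of the 20 overlapping peaks, 1 was a DER there (2.95% of 1695 peaks), near Gm14496. In NeuN- nuclei the 3 WT libraries averaged 1.19 ± 2.07 (SD) normalised reads at that peak and the 3 DKO libraries 15.4 ± 10.6 (SD). At P4ha2 the values of NeuN- nuclei were 23.0 in WT and 14.3 in DKO, a log2 fold change of -0.58 (unadjusted p = 0.329), and at Jarid2 11.1 and 24.3 (1.07, unadjusted p = 0.101). The median log2 fold change of the NeuN- peaks at higher DERs was 0.59 and at lower DERs 0.18, against 0.21 over the whole table. In this fraction 2 identity markers had an H3K27me3 promoter peak that was a DER. Rbfox3, the gene of the NeuN antigen and the 1 of 8 neuronal markers with such a peak, had 2.78 to 13.5 normalised reads in WT and 12.6 to 33.9 in DKO. Cldn5, an endothelial claudin and the 1 of 13 glial and vascular markers with one, had 0 to 3.01 and 5.30 to 10.7. Their part in the NeuN- values was not tested, nor was any difference of effect between the fractions.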

How the data were processed

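Chromatin immunoprecipitation was done by the authors on hippocampal nuclei sorted by NeuN. Per the labels, reads were aligned to GRCm38 with Bowtie2 2.3.5.1, and peaks were counted with DiffBind 3.10.1 and annotated with ChIPseeker 1.36. The values the authors deposited are signal, that is reads per fixed-width consensus peak times 1 factor per library. Whole reads were recovered from them, with 100% of values whole within 0.001, and scaled with TMM factors of edgeR 4.0.16 (normalised reads).

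limma 3.58.1 (trend and robust) was fitted on log2(normalised reads + 1) of the 12 H3K27me3 libraries of NeuN+ nuclei, with genotype as the term. A pseudocount of 1 understates fold changes of low peaks. DESeq2 1.42.0, edgeR and limma-voom were alternatives, beside other scalings, filters and left-out libraries. R 4.3.3 and Python were used, and the scripts were tested on simulated data. The spread of a single peak entered the p at only 150 peaks, because the prior degrees of freedom were infinite at the others.

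Named peaks were the 5 DERs of smallest p, without overlap of groups and under 50% masked, per class and direction, 2 repeat DERs at most per direction, and up to 2 DERs per direction of each gene list. Members and lists were chosen with earlier results of these data known. Patterns for olfactory receptors were widened once the gene symbols were seen. Input libraries were not used here.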

Additional observations from a re-analysis of the deposited data

How the results depend on the processing

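Every alternative kept the direction of every named peak, and the change of call is given here by setting. Of 46 named peaks, 37 stayed DERs with the authors' factors, 29 in edgeR, 33 in DESeq2, 43 in limma-voom, 42 without robust moderation and between 44 and 45 with the other scalings, pseudocounts and sets of libraries tried. Of the 10 that could be fitted with a mean of at least 10 reads, 3 stayed DERs. Leaving out 1 library kept between 25 (without DKO replicate 1) and 40 (without DKO replicate 3).

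For DKO against WT, edgeR called 108 DERs, 32 of them lower, and limma-voom 282, of which 150 were higher and 132 lower, with 2 of adjusted p under 0.05. With a mean of at least 10 reads there were 6 DERs, 3 higher and 3 lower, at 416 peaks tested. Leaving out each library gave 129 to 203 DERs, 54 to 102 higher and 61 to 133 lower. The share of higher DERs was 55.7%, and between 34.5% and 61.9% when a library was left out. For DKO against the single knockouts, the authors' factors gave 50 lower DERs, edgeR 111 with 46 lower, limma-voom 305 with 208 higher, and the filter 8, of which 2 were higher and 6 lower. Leaving out a DKO library gave 118 to 191 DERs, 41 to 60 higher and 68 to 131 lower. The causes were not tested.

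The difference of read share between DKO and WT ranged from -3.33 to -0.475 percentage points for promoters when a library was left out, from -0.523 to 1.30 for gene bodies, from 0.998 to 2.41 for distal peaks and from -1.15 to 2.45 for repeat peaks. Without DKO replicate 1 it turned to -0.523 for gene bodies and -1.15 for repeat peaks.

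At the H3K27me3 DERs, the median log2 fold change of H3K4me3 was 0.57 with centres within 1 kb and 0.74 with an overlap of at least 50%, and 0.46 to 0.89 when a library was left out. Over all H3K4me3 peaks the median was -0.01. In the main setting it was 0.83 at the 13 peaks of higher DERs and 0.16 at the 5 of lower DERs. Of the 13, 10 lie at the DERs that overlapped a peak of all 3 other readouts. Only 1 of the 13 was itself an H3K4me3 DER. The part of the shared peaks in this median was not tested. The number of H3K4me3 DERs there was 0 with the authors' factors and 0 to 2 when a library was left out. For Suz12 the median was 0.11 with the authors' factors and -0.0805 to 0.47 when a library was left out. For H3K27me3 of NeuN- nuclei the number of DERs was 2 with the replicate block and 1 to 2 when a library was left out.

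With the replicate block, there were 196 DERs of DKO against WT (108 higher and 88 lower) and 199 against the single knockouts. The correlations of the deviations of same-numbered WT and DKO libraries were 0.083, 0.055 and 0.0061, and not all over 0.1. At so few reads per peak, low correlations cannot exclude a batch shared by libraries of the same number. Replicate 1 had the largest share of reads in the peaks left out in every genotype. That share was 13.2% in WT, 31.7% in DKO, 52.8% in Mutyh-/- and 21.6% in Ogg1-/-. Replicate 3 was the deepest library of every genotype. Depth limits every value, as most peaks had under 10 reads per library.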
